A study of Mus musculus with 12 samples.

Results

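CD4+ T cells taken straight from the spleen of Sirt2-/- mice (KO) were compared with those of wild-type C57BL/6J mice (WT), by total RNA sequencing and without any stimulation in culture. The comparison took in the 6 libraries labelled 0 h, 3 KO and 3 WT, of the 12 libraries of the study. The other 6 came from cells of the same genotypes kept for 24 h on plate-bound anti-CD3, an antibody that triggers the T cell receptor, and are used below only to show where the unstimulated cells differ. All mice were on a C57BL/6 background, and no promoter or cell type that would limit the Sirt2 deletion to T cells is named. The CD4+ cells were enriched by removing other cells, so nothing was bound to the T cells themselves, and a purity above 95% was stated for them. Age and sex of the mice are not stated, nor is it stated that each library stands for a separate mouse, so a p-value here weighs a difference only against library-to-library spread, part of which may be technical.

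Sirt2 is an NAD-dependent deacetylase that works mainly in the cytosol, where it takes acetyl groups off alpha-tubulin, metabolic enzymes and transcription factors. A resting CD4+ T cell that has left the thymus is kept quiet by a programme of naive genes and low nutrient use. On antigen it switches on immediate-early genes, NF-kappaB and Myc, and the same signals induce their own inhibitors. Because every KO library carries the deleted allele together with the stretch of chromosome 7 around it, an effect of losing Sirt2 and an effect of DNA inherited along with the allele cannot be told apart for genes close by. Genes near Sirt2 were therefore kept apart from genes elsewhere, with "near" meaning the 100 tested genes on each side of it in RefSeq order. Where the inherited stretch ends was not determined, so genes outside this range are not thereby free of the same limit.

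The libraries held 5777625 to 10025352 reads on genes, and the ranges of the groups overlapped. Rn45s, the ribosomal RNA precursor, took 12.5 to 17.5% of these reads, with overlapping groups. All 8 T cell markers in the count tables were abundant, Cd3e at 2399 ± 184 CPM (read counts relative to the scaled library size; SD, n = 3) in WT and 2485 ± 225 in KO, and Cd4 at 1650 ± 69.5 and 1680 ± 147. KO replicates 1 and 3 stood apart from the other libraries, replicate 3 on the first and replicate 1 on the second principal component of log2 CPM. These components held 26.4% and 23.3% of the variance, and counts are given below without each of these libraries as well.

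Sirt2 itself checked the labels. Its level was 70.5, 67.9 and 85.4 CPM in the WT libraries and 12.1, 9.04 and 16.2 CPM in the KO libraries. Each KO library thus lay far below each WT library, at a mean of 16.7% of the WT level, a log2 fold change of -2.60 (SE 0.19; adjusted p = 7.69e-11). The remaining reads, 255 against 1579, were not split by exon in the count tables, and exons of Sirt2 overlap those of Nfkbib on the opposite strand. Of the other 6 sirtuins none passed the test. Sirt1, the nuclear relative, stood at 34.5 ± 3.41 CPM in WT and 36.1 ± 8.90 in KO, and the list ran from -0.08 to 0.17 on the log2 scale.

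The unstimulated KO cells differed from WT in few genes. Of 10981 genes tested, 38 passed an adjusted p below 0.05 in edgeR's quasi-likelihood test with Benjamini-Hochberg adjustment (0.346% of genes tested), 13 higher in KO (0.118%) and 25 lower (0.228%). At an unadjusted p below 0.05 there were 878 (8.0%). The calls comprised 12 genes near Sirt2 on chromosome 7, Sirt2 included, 3 farther along it and 23 on other chromosomes. Txnip led the genes that were higher on other chromosomes, and Nfkbia, Tnfaip3 and Myc were among those that were lower. The WT and KO libraries did not overlap for any of the 38, as for 12.4% of all genes tested. The count fell to 17 without KO replicate 3, 22 without KO replicate 2 and 25 without WT replicate 1, and it was 29 without KO replicate 1.

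**Figure D1:**
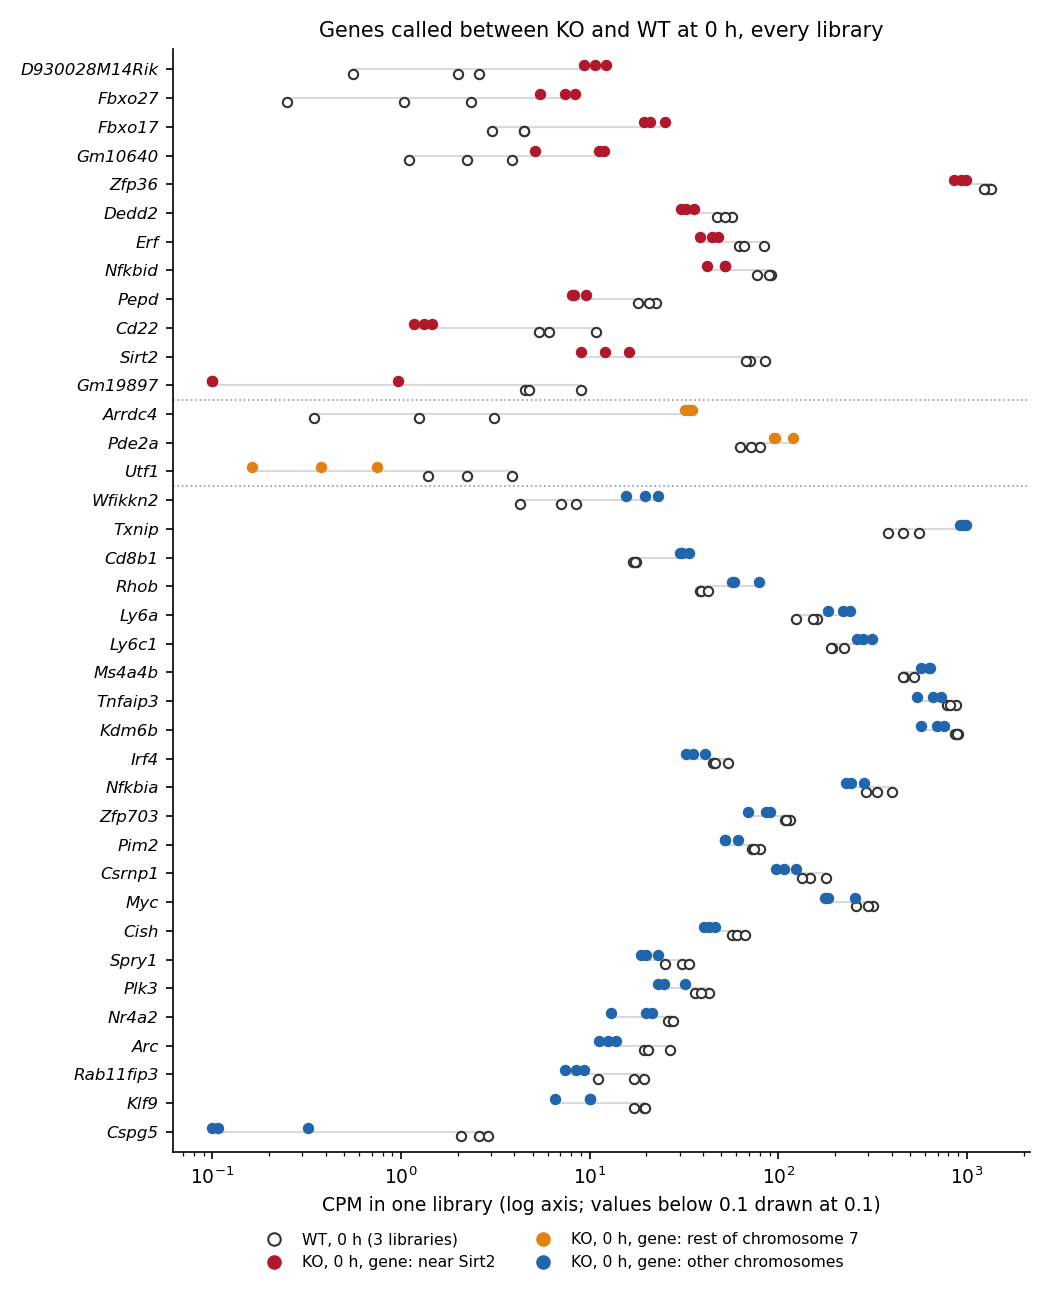
Level of each of the 38 called genes in every library at 0 h, in CPM on a log axis; open points are the 3 WT libraries and filled points the 3 KO libraries, coloured by the place of the gene, with dotted lines between the places. Arrdc4 shows the widest gap, from at most 3.13 CPM in WT to at least 32.2 CPM in KO, while most genes lower in KO on other chromosomes sit just to the left of their WT points.

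Near Sirt2, 12 of 201 tested genes were called, 4 higher and 8 lower in KO, which is 5.97% against 0.241% of the 10780 genes elsewhere. They were spread on both sides of the gene, from 63 tested genes before it (D930028M14Rik) to 66 after it (Pepd), with 2 to 3 calls in each window of 50 tested genes besides Sirt2. The next windows outward, from 101 to 200 places on either side, held no call. Of the 10 tested genes next to Sirt2 on each side only Fbxo27, Fbxo17 and Gm19897 were called. Of the 17 others 3 had an unadjusted p below 0.05, Lrfn1 (log2 fold change 1.43; adjusted p = 0.443), Rinl (0.21; adjusted p = 0.551) and Fam98c (-0.54; adjusted p = 0.557). Paf1, Samd4b, Gmfg, Pak4, Mrps12, Sars2, Hnrnpl, Ech1, Lgals4, Actn4, Eif3k, Map4k1, Rasgrp4 and Nfkbib had not, and Nfkbib, whose exons overlap Sirt2, had a log2 fold change of -0.12 (95% interval -0.37 to 0.14). With 50 tested genes on each side 6 of 101 were called, and with 200 on each side 12 of 401.

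**Figure D2:**
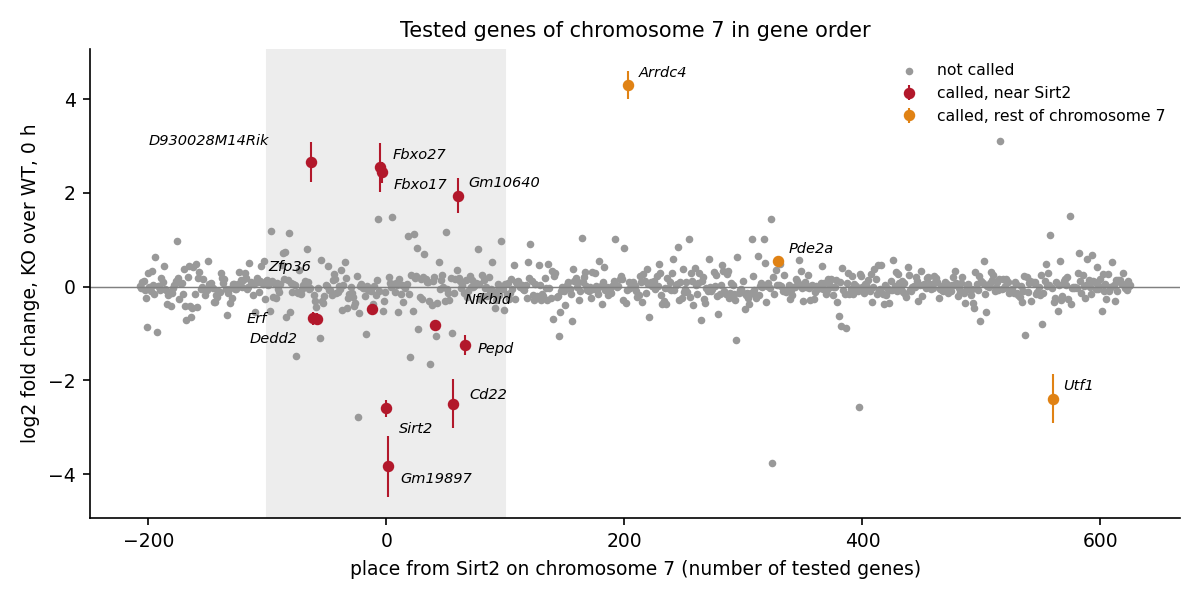
Log2 fold change of KO over WT at 0 h for the tested genes of chromosome 7, by the number of tested genes between each and Sirt2; grey points were not called, coloured points were called and carry their standard error, and the grey band is the 100 places on each side. The calls lie within 66 places of Sirt2, except Arrdc4, Pde2a and Utf1 farther along.

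The 4 genes near Sirt2 that rose included a pair of neighbours, Fbxo17 and Fbxo27, whose proteins are sugar-binding F-box subunits of SCF ubiquitin ligases and recognise glycoproteins. Fbxo17 was at 4.5, 3.05 and 4.51 CPM in WT and 20.8, 19.5 and 25.2 CPM in KO. It was thus 5.41-fold higher, with a log2 fold change of 2.44 (SE 0.23; adjusted p = 4.78e-10). Fbxo27, a lower gene, went from 1.04, 2.36 and 0.250 CPM to 7.40, 8.39 and 5.46 CPM, a log2 fold change of 2.54 (SE 0.52; adjusted p = 0.00936), and lost its call without WT replicate 1, KO replicate 2 or WT replicate 3, with adjusted p up to 0.0902; without WT replicate 2 the log2 fold change of Fbxo27 was 3.53. The RNA D930028M14Rik, for which no function is given here, rose from 2.6, 0.554 and 2.00 CPM to 9.33, 12.3 and 10.7 CPM (log2 fold change 2.66, SE 0.43; adjusted p = 0.000366). Gm10640 stood at 2.25, 1.11 and 3.88 CPM in WT against 11.3, 5.16 and 11.9 CPM in KO (log2 fold change 1.94, SE 0.38; adjusted p = 0.00519). Its exons overlap Gramd1a on the opposite strand, and whether the counting used strand is not stated, so reads of these genes cannot be told apart. Gm10640 lost its call without KO replicate 1, WT replicate 2 or KO replicate 3 (adjusted p up to 0.0698).

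Among the genes near Sirt2 that fell were 3 regulators of signalling and RNA decay. Nfkbid encodes IkappaBNS, a nuclear inhibitor protein that steers NF-kappaB at its target genes and is induced by the T cell receptor. Its level was 91.6, 89.2 and 77.3 CPM in WT and 41.9, 52.3 and 52.5 CPM in KO, a mean of 56.8% of WT (log2 fold change -0.82, SE 0.12; adjusted p = 1.62e-05). Zfp36 encodes tristetraprolin, which binds AU-rich elements and speeds the decay of cytokine messengers. It was one of the more abundant called genes, with 1268, 1341 and 1231 CPM in WT and 935, 851 and 990.3 CPM in KO (log2 fold change -0.47, SE 0.08; adjusted p = 0.00136). Erf, a transcriptional repressor of the ETS family that MAP kinase signalling switches off, fell from 84.0, 62.1 and 66.1 CPM to 48.2, 38.7 and 44.4 CPM (log2 fold change -0.68, SE 0.13; adjusted p = 0.00249). No WT library overlapped a KO library for these genes; Nfkbid and Zfp36 stayed called without any 1 library, and Erf lost its call without WT replicate 1 or KO replicate 2 (adjusted p up to 0.0735).

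Pepd and Dedd2, which also lie near Sirt2 and fell, have unrelated known roles. Pepd, the peptidase that splits dipeptides ending in proline, was at 22.5, 20.6 and 18 CPM in WT and 8.26, 9.52 and 8.10 CPM in KO (log2 fold change -1.24, SE 0.22; adjusted p = 0.000966). Dedd2, a death-effector-domain protein, was at 57.2, 47.5 and 52.2 CPM against 32.4, 30.7 and 35.6 CPM (log2 fold change -0.67, SE 0.14; adjusted p = 0.0120), and lost its call without KO replicate 1, WT replicate 1, KO replicate 2 or WT replicate 3. For Gm19897, the tested gene next to Sirt2, no role is given here. It is absent from GENCODE, so overlap of its exons with other genes could not be checked. Gm19897 had 123 reads in the WT libraries (9.01, 4.57 and 4.76 CPM) and 9 in KO, all in KO replicate 1 (0.965 CPM). Its log2 fold change was -3.83 (SE 0.64; adjusted p = 0.000593), a fitted value that depends on the prior count because KO replicates 2 and 3 were at 0; it was -8.23 without KO replicate 1.

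Cd22, an inhibitory receptor of B cells, was the remaining gene near Sirt2 that fell. It measured 6.06, 5.40 and 10.8 CPM in WT and 1.18, 1.45 and 1.32 CPM in KO, a log2 fold change of -2.49 (SE 0.52; adjusted p = 0.0118). The call was lost without any of the 3 KO libraries and without WT replicate 3, with adjusted p up to 0.156. Of the 17 listed B cell markers 14 were in the count tables, and their summed level ran from 76.9 to 100.4 CPM in WT and from 71.9 to 100.9 CPM in KO (two-sided exact permutation p = 0.8, adjusted 0.8 over 12 marker lists; 0.1 is the smallest p that 3 against 3 allow). Cd22 was the only one of the 8 tested B cell markers to be called; Cd79a stood at 13.1 ± 3.17 and 13.5 ± 1.58 CPM, and Ms4a1 and Pax5 were below 2 CPM in every library. Without Cd22 the sum ran from 70.8 to 95.0 CPM in WT and from 70.7 to 99.6 CPM in KO, with Cd74, which other cells also express, at 56.6 ± 5.95 and 53.0 ± 6.80 CPM of it. Single markers went both ways: Fcer2a had 25 reads in WT and 9 in KO, Ms4a1 4 and 17, and Pax5 8 and 18. Of the 14 markers 9 had a higher mean in KO. The part of B cells in the fall of Cd22 was not tested.

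Farther along chromosome 7 only 3 of 632 tested genes were called (0.475%). For these genes too, an effect of losing Sirt2 and an effect of inherited DNA cannot be told apart. The foremost was Arrdc4, 203 tested genes from Sirt2, which together with Txnip on chromosome 3 belongs to the alpha-arrestins, adaptor proteins that send membrane transporters to be internalised. Txnip binds thioredoxin and, like Arrdc4, limits glucose uptake, and both genes are textbook targets of MondoA and Mlx, transcription factors that sense glucose phosphates through paired E-box motifs. The 250 bases before the start of each gene (RefSeq, GRCm38.p6) are shown because these 2 genes rose together; capitals mark the E-box CACGTG and its variant CACGAG, searched on both strands. The Txnip stretch is chr3:96557707-96557956 on the plus strand and the Arrdc4 stretch chr7:68749239-68749488 on the minus strand.
Txnip: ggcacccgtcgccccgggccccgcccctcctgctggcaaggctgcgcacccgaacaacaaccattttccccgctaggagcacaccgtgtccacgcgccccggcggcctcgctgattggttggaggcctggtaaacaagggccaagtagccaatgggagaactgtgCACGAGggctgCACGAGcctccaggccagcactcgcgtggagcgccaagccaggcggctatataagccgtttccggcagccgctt
Arrdc4: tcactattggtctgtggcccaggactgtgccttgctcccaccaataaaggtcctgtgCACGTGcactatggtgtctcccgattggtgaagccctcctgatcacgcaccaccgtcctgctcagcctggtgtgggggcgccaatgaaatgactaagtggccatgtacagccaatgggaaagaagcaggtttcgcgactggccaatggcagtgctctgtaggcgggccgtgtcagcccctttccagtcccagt

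In the Txnip stretch the CACGAG motifs lie 5 bases apart, between 85 and 69 bases before the start. A pair of CACGNG motifs at this spacing, of which both E-box forms are cases, was found in 0.0487% of the 32851 RefSeq windows of the genome (250 bases before to 50 after a start) and in 0.0765% of the 10463 windows of tested genes. Arrdc4 holds 1 CACGTG, from 193 to 188 bases before its start, a motif found in 7.15% of all windows and 10.4% of those of tested genes, and CACGAG was found in 6.47% and 8.53%. Of the 11 genes called higher that had a window, only Txnip held the pair, so Arrdc4 did not, and only Arrdc4 held CACGTG. Of the 20 called lower that had a window, 2 held CACGTG (Pepd and Tnfaip3). A match describes the sequence only and was not linked to binding in these cells.

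Arrdc4 was close to silent in WT, at 0.346, 1.25 and 3.13 CPM, and reached 33.6, 35.0 and 32.2 CPM in KO. This was the most extreme difference by adjusted p in the comparison, 19.7-fold and 4.30 on the log2 scale (SE 0.31; adjusted p = 4.79e-13). Without WT replicate 3, the highest of the WT libraries, the log2 fold change of Arrdc4 was 5.29, and without WT replicate 1 it was 3.90. Txnip was already abundant in WT, at 382, 457 and 555 CPM, and stood at 950.4, 995 and 923 CPM in KO. Its rise was 2.06-fold, a log2 fold change of 1.04 (SE 0.09; adjusted p = 7.69e-11), and both genes stayed called without any 1 library. Txnip exons overlap Gm15441 on the opposite strand. Of the 7 tested alpha-arrestins and MLX-family factors these were the 2 called; the list's median log2 fold change was 0.32 and its lowest member was at -0.28, against a median of 0.00 over all genes tested.

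The other genes called on the rest of chromosome 7 were Pde2a and Utf1. Pde2a, a phosphodiesterase that breaks down cyclic AMP and cyclic GMP, rose from 80.0, 62.6 and 72.1 CPM to 121, 95.5 and 95.6 CPM (log2 fold change 0.55, SE 0.12; adjusted p = 0.0135). It was the only one of 20 tested cyclic AMP genes to pass, and lost its call without KO replicate 1, WT replicate 2 or WT replicate 3. Exons of Pde2a overlap Gm45837, a protein-coding gene on the same strand, and reads in the overlap cannot be told apart. Utf1, a chromatin factor known from embryonic stem cells, had 54 reads in WT and 10 in KO, with a log2 fold change of -2.39 (SE 0.52; adjusted p = 0.0176). The call for Utf1 was lost without KO replicate 2, WT replicate 2 or KO replicate 3 (adjusted p up to 0.199) and in limma-voom (adjusted p = 0.243), and its log2 fold change was -3.19 without KO replicate 1. Utf1 passed the filter on low counts only because of the 24 h libraries, with means of 10.9 CPM in WT and 11.2 CPM in KO. With the 0 h libraries alone it was filtered out and not tested.

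On the other chromosomes 23 of 10107 tested genes were called (0.228%), 7 higher and 16 lower in KO. This count depended on the libraries more than the calls near Sirt2 did: without KO replicate 3 it was 5, without KO replicate 2 it was 12, and without WT replicate 1 it was 13, while the calls near Sirt2 numbered 10, 8 and 9. Fitting the 6 libraries at 0 h alone gave 10, limma-voom 15, and no filter on low counts 42. These counts include genes newly called in a refit. The 10 from the 0 h libraries alone were all among the 23. They were Txnip, Wfikkn2, Ly6c1, Ly6a, Rhob, Cd8b1, Klf9, Cspg5, Nfkbia and Csrnp1. Not called in that fit were Myc, Nr4a2, Irf4, Tnfaip3, Arc, Plk3, Cish, Pim2, Spry1, Kdm6b, Zfp703, Rab11fip3 and Ms4a4b. Of the 23 genes themselves, 5 stayed called without KO replicate 3, 10 without KO replicate 2 and 8 without WT replicate 1. Without KO replicate 1, WT replicate 2 and WT replicate 3 the numbers were 12, 15 and 8. Txnip and Wfikkn2 were the 2 of the 23 that stayed called without any 1 library.

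The genes that rose on other chromosomes, besides Txnip, included 4 that encode surface proteins of lymphocytes. Ly6c1 and Ly6a encode GPI-anchored antigens of the Ly6 family, Ly6C on subsets of naive and memory T cells and Sca-1 on activated and memory ones. Ly6c1 was at 222, 193 and 191 CPM in WT and 315, 261 and 282 CPM in KO (log2 fold change 0.50, SE 0.10; adjusted p = 0.00396). Ly6a was at 161, 124 and 153 CPM and at 221, 183 and 241 CPM (log2 fold change 0.56, SE 0.12; adjusted p = 0.0358). They were the 2 called of 7 tested Ly6 genes, whose median log2 fold change was 0.28, with 6 of 7 above 0. Leaving out KO replicate 1 ended the call for both genes, and KO replicate 3, WT replicate 2 or WT replicate 3 that for Ly6a (adjusted p up to 0.0532 for Ly6c1 and 0.196 for Ly6a).

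Ms4a4b, a multi-pass membrane protein of naive and Th1 cells, was at 466, 459 and 522 CPM in WT and 573, 631 and 639 CPM in KO. The log2 fold change of 0.35 (SE 0.08; adjusted p = 0.0418) was the smallest among all 38 calls. Rhob, a small GTPase of endosomes, was at 38.5, 39.1 and 42.7 CPM against 58.3, 56.6 and 78.9 CPM (log2 fold change 0.68, SE 0.14; adjusted p = 0.00936). Wfikkn2 encodes a secreted protein with protease-inhibitor domains that binds growth factors of the TGF-beta family. It was at 8.49, 7.07 and 4.26 CPM in WT and 15.7, 19.7 and 23.2 CPM in KO, the largest rise among the called genes outside chromosome 7 (log2 fold change 1.57, SE 0.26; adjusted p = 0.000366). Ms4a4b lost its call without WT replicate 1, KO replicate 2, WT replicate 2 or KO replicate 3, and Rhob without WT replicate 1 or KO replicate 3 (adjusted p up to 0.244 and 0.210).

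Cd8b1, the beta chain of CD8, was at 17.0, 17.7 and 17.5 CPM in WT and 30.0, 30.8 and 33.5 CPM in KO (log2 fold change 0.85, SE 0.18; adjusted p = 0.0176). Each KO library lay above each WT library, though the call held only in the refit without KO replicate 1 and was lost in the other 5, with adjusted p up to 0.121. Cd8a, the alpha chain, had too few reads to be tested, 15 in WT and 22 in KO. In bulk RNA, more cells of a type and more RNA per cell cannot be told apart. The summed NK cell markers moved the same way, from 89.1 to 93.0 CPM in WT and from 100.2 to 108.8 CPM in KO, as did those of monocytes and macrophages, from 25.5 to 30.7 and from 32.0 to 38.0 CPM. The latter rise was that of 1 member, Ccr2, a chemokine receptor that T cells also carry (11.7 ± 2.46 and 17.9 ± 3.16 CPM); without it the sum ran from 15.4 to 17.6 CPM in WT and from 14.9 to 17.3 CPM in KO. For these 3 lists the exact permutation p was 0.1, the smallest that 3 against 3 allow, and 0.3 after adjustment over 12 lists. The red blood cell list had the same values in that test and went the other way. Its sum ran from 16.9 to 22.5 CPM in WT and from 15.5 to 16.0 CPM in KO, almost all of it Tfrc. Of the 10 NK markers 7 had a higher mean in KO, while Klra8 and Klra4 were at 0 in every library. Ncr1 had 5 reads in WT and 30 in KO. Eomes was at 22.9 ± 2.04 CPM in WT and 23.3 ± 1.20 in KO, and Prf1 at 29.7 ± 1.95 and 26.8 ± 7.24. Of the monocyte and macrophage markers Cd14, Fcgr1, Spic, C1qa and C1qc were at 0 in every library. The part of such cells in the genes that rose was not tested.

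The 16 genes that fell on other chromosomes included 6 of the listed T cell activation, immediate-early and NF-kappaB genes, among them inhibitors of the pathway that induces them. Their falls were small, with a median log2 fold change of -0.50, and none of the 16 stayed called in all 6 refits that left out 1 library. Nfkbia, which encodes IkappaB-alpha, the cytoplasmic inhibitor that NF-kappaB induces to end its own activity, was at 400.1, 335 and 293 CPM in WT and 287, 242 and 230.3 CPM in KO. This was 73.9% of the WT mean (log2 fold change -0.43, SE 0.10; adjusted p = 0.0209). Tnfaip3, which encodes the ubiquitin-editing enzyme A20 of the same loop, was at 881, 787 and 816 CPM against 661, 726 and 545 CPM (log2 fold change -0.36, SE 0.09; adjusted p = 0.0467). With Nfkbid these made 3 of 21 tested NF-kappaB pathway genes lower and none higher, with a list median of -0.08. Both Nfkbia and Tnfaip3 lost their calls without WT replicate 1 or KO replicate 3, Nfkbia also without KO replicate 2 and Tnfaip3 without KO replicate 1 or WT replicate 3 (adjusted p up to 0.362 and 0.393). With the 6 libraries at 0 h alone the adjusted p in edgeR was 0.0470 for Nfkbia and 0.0917 for Tnfaip3.

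The promoters of the inhibitors on both chromosomes are shown because both genes fell; they are the 250 bases before the start of Nfkbia, chr12:55492648-55492897 on the minus strand, and of Nfkbid, chr7:30422156-30422405 on the plus strand (RefSeq, GRCm38.p6). Of the 3 Nfkbid windows the one with the most matches is printed. Capitals mark the kappaB consensus, the 10-base motif that NF-kappaB dimers bind, and in Nfkbid also the cyclic AMP response motif TGACGTCA, which is its most downstream match; both were searched on both strands in both stretches, and no matches overlap.
Nfkbia: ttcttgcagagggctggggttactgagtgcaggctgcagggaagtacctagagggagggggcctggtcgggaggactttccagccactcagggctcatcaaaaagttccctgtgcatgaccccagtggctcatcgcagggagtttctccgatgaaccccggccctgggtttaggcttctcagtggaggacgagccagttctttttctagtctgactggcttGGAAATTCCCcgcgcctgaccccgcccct
Nfkbid: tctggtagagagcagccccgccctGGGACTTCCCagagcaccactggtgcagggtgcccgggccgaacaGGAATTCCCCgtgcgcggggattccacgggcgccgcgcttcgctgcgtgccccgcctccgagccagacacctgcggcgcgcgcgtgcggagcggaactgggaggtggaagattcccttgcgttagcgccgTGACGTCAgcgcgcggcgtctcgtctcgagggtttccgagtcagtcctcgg
The kappaB consensus lies 29 to 20 bases before the Nfkbia start, and 226 to 217 and 181 to 172 bases before the Nfkbid start. It was found in 8.46% of the 32851 windows and in 10.4% of the 10463 windows of tested genes. TGACGTCA lies 51 to 44 bases before the Nfkbid start and was found in 1.79% of all windows and 3.22% of those of tested genes. Of the 20 genes called lower that had a window, 4 held the kappaB consensus (Nfkbia, Nfkbid, Tnfaip3 and Sirt2) and 2 held TGACGTCA (Nfkbid and Rab11fip3). Of the 11 called higher that had a window, 0 held either motif. A gene was counted if any of its windows matched, whereas the shares above are of single windows, so these counts and shares are not directly comparable.

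Myc, Nr4a2 and Irf4, transcription factors of early activation, fell as well. Myc, which drives growth and nutrient use on activation, was at 317, 259 and 299.9 CPM in WT and 256, 177 and 185 CPM in KO (log2 fold change -0.50, SE 0.11; adjusted p = 0.0236). The WT library with the lowest level and the KO library with the highest were only just apart. Nr4a2, a nuclear receptor induced by the T cell receptor, was at 26.7, 25.9 and 27.7 CPM against 13.0, 21.5 and 20 CPM (log2 fold change -0.59, SE 0.14; adjusted p = 0.0447). Irf4, whose level follows the strength of that signal, was at 54.2, 45.3 and 46.1 CPM against 32.6, 35.3 and 41.0 CPM (log2 fold change -0.42, SE 0.10; adjusted p = 0.0494). Leaving out WT replicate 1 or WT replicate 3 ended the call for these 3 genes, as did KO replicate 3 for Myc and Nr4a2, KO replicate 1 for Nr4a2 and Irf4, KO replicate 2 for Myc and Irf4, and WT replicate 2 for Nr4a2. In the fit of the 0 h libraries alone none of the 3 was called. The adjusted p in edgeR was then 0.0704 for Myc, 0.357 for Nr4a2 and 0.358 for Irf4.

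Arc, Csrnp1, Plk3 and Klf9 are also response genes. Arc, a capsid-like protein best known from neurons and one of the immediate-early genes, was at 26.7, 19.5 and 20.4 CPM in WT and 11.3, 12.6 and 13.7 CPM in KO (log2 fold change -0.83, SE 0.20; adjusted p = 0.0419). Csrnp1, a nuclear protein induced by cytokines, was at 180, 148 and 134 CPM against 125, 107 and 97.5 CPM (log2 fold change -0.48, SE 0.11; adjusted p = 0.0209). Plk3, a stress-responsive kinase, was at 36.0, 43.1 and 39.2 CPM against 24.7, 32.1 and 23.0 CPM (log2 fold change -0.57, SE 0.14; adjusted p = 0.0418). Klf9, a Kruppel-like factor induced by glucocorticoids, had the largest fall among the called genes outside chromosome 7 with at least 5 CPM in a group. It was at 19.4, 19.7 and 17.3 CPM in WT and 10.1, 10.0 and 6.59 CPM in KO (log2 fold change -1.06, SE 0.21; adjusted p = 0.00851), and it lost its call only without KO replicate 3 (adjusted p = 0.0978). It was the only one of 11 tested Kruppel-like factors to be called. Of the 6 refits without 1 library, Csrnp1 stayed called in 3, and Arc and Plk3 in 1 each. Their adjusted p in edgeR rose to at most 0.337, 0.319 and 0.259.

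Cish, Pim2 and Spry1, single genes of cytokine and growth-factor signalling, were also called. Cish, which STAT5 induces to damp cytokine receptor signals, was at 57.2, 60.5 and 66.6 CPM in WT and 43.2, 46.3 and 40.3 CPM in KO (log2 fold change -0.51, SE 0.11; adjusted p = 0.0265). Pim2, a survival kinase that cytokines also induce, was at 79.7, 72.5 and 74.5 CPM against 52.1, 52.4 and 61.4 CPM (log2 fold change -0.45, SE 0.10; adjusted p = 0.0209). Spry1, an inhibitor of the RAS and MAP kinase pathway, was at 30.8, 25.2 and 33.8 CPM against 23.0, 19.8 and 18.6 CPM (log2 fold change -0.53, SE 0.13; adjusted p = 0.0419). Each of these had all KO libraries below all WT libraries, and each passed in 2 of the 6 refits without 1 library. Cish was the only called member of 30 tested cytokine receptor and signalling genes, and Spry1 and Erf were the 2 of 26 MAP kinase phosphatases, ETS factors and their kin.

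The remaining genes that fell were a histone demethylase, a transcriptional corepressor, a trafficking adaptor and a proteoglycan. Kdm6b, which removes a repressive methyl mark from histone tails, was at 861, 894 and 883 CPM in WT and 760.1, 694 and 571 CPM in KO (log2 fold change -0.38, SE 0.09; adjusted p = 0.0467). Zfp703, a zinc-finger corepressor, was at 109, 115 and 110.4 CPM against 90.2, 86.0 and 68.9 CPM (log2 fold change -0.44, SE 0.11; adjusted p = 0.0419). Rab11fip3, an adaptor of the recycling endosome GTPase Rab11, was at 11.1, 19.4 and 17.1 CPM against 7.40, 9.36 and 8.47 CPM (log2 fold change -0.94, SE 0.22; adjusted p = 0.0380). Cspg5 had 53 reads in WT and 3 in KO, a ratio of 0.0570 (95% interval 0.0114 to 0.176, counting error only). Kdm6b, Zfp703 and Rab11fip3 each passed in 1 of the 6 refits without 1 library and Cspg5 in 3. Exons of several genes in this set overlap an annotated antisense RNA, Kdm6b that of Kdm6bos among them.

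Of the 918 tested genes in 40 gene lists, 13 fell, 5 rose and 54.1% were below 0, against 49.0% of all genes tested. The lists were chosen with earlier results of these data known, so their counts do not support the calls above. Of 27 tested T cell activation genes 4 fell (Nfkbid, Nr4a2, Myc and Irf4) and none rose; the median log2 fold change was -0.15 and 21 of 27 were below 0. Of 21 immediate-early genes, which handling of tissue is also known to induce, 3 fell (Arc, Zfp36 and Nfkbia), the median was -0.25 and 17 were below 0. Together with the NF-kappaB list these held 65 tested genes, of which 8 fell and none rose, against 0.228% called lower among all genes. Nfkbid and Zfp36 lie near Sirt2. Without genes near it, 6 of 60 fell. Of these 6, only Nfkbia was still called in the fit of the 0 h libraries alone. The medians of all 3 lists stayed below 0 under each of 14 alternatives in processing. Whether the time between collection and lysis moved with genotype is not given in the sources used here, and its part was not tested.

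**Figure D3:**
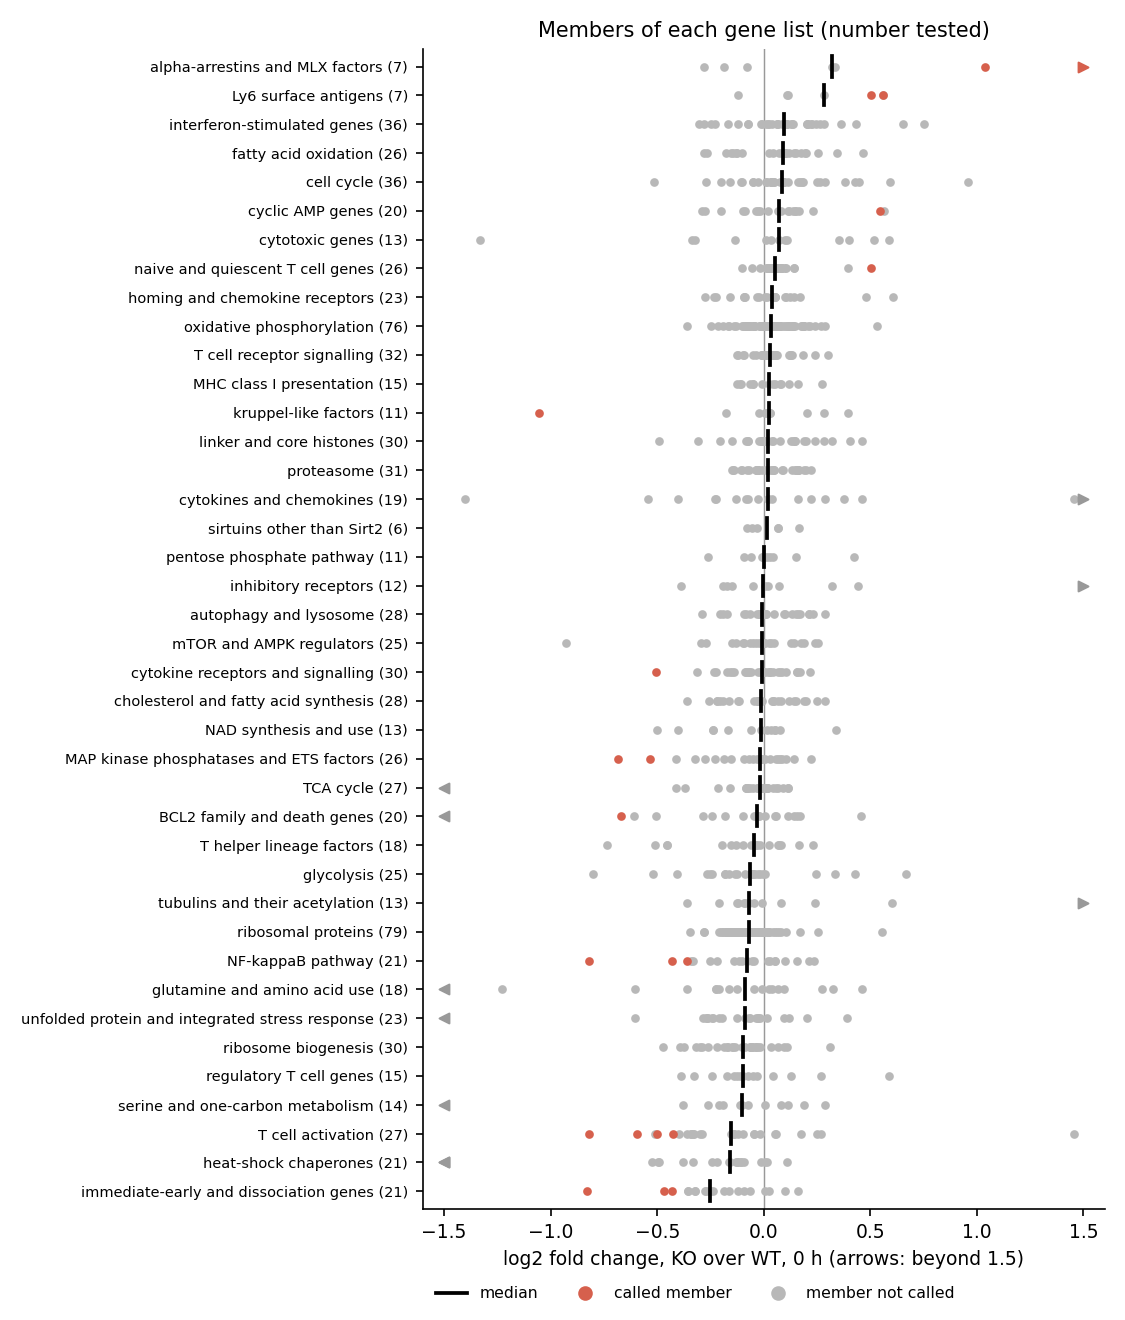
Log2 fold change of KO over WT at 0 h for the tested members of 40 gene lists, ordered by median; each point is a gene, red for called members, the black bar is the list median and arrows mark members beyond 1.5. Medians run from 0.32 for alpha-arrestins and MLX factors to -0.25 for immediate-early genes, and most lists sit close to 0.

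Among genes of the naive and resting state, 1 of 26 tested members rose, Ly6c1, and 23 were above 0, with a median of 0.05. Dapl1, a marker of naive cells, was at 176 ± 7.23 CPM in WT and 231 ± 41.7 in KO (log2 fold change 0.40; adjusted p = 0.361), and the lymph node receptor Ccr7 at 543 ± 31.2 and 582 ± 9.73 (0.10; adjusted p = 0.833). None of 32 T cell receptor signalling genes passed; Cd5, a damper of that signal, came nearest at 400 ± 28.9 and 493 ± 22.6 CPM (0.30; adjusted p = 0.140).

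No gene of the metabolic lists was called. Across 10 lists of glycolysis, the TCA cycle, oxidative phosphorylation, fatty acid, amino acid, one-carbon, pentose phosphate, cholesterol, NAD and mTOR genes, 0 of 257 tested genes passed in edgeR; 22 had an unadjusted p below 0.05 (8.56%), near the 8.0% of all genes. DESeq2 called 1 of those named here, Slc7a5. The 76 oxidative phosphorylation genes had a median log2 fold change of 0.03 and the 25 glycolysis genes -0.06, with 20 of 25 below 0. Aldoa, the glycolytic aldolase, was at 540 ± 66.5 CPM in WT and 454 ± 37.5 in KO (95% interval of the log2 fold change -0.44 to -0.06; adjusted p = 0.384). Slc7a5, the large neutral amino acid transporter that activated T cells induce, was at 74.2 ± 2.82 and 58.0 ± 4.27 CPM, with a log2 fold change of -0.36 (95% interval -0.55 to -0.17; adjusted p = 0.0999). The mitochondrial folate enzyme Mthfd2 stood at 34.7 ± 2.64 and 26.8 ± 2.12 CPM (-0.38; adjusted p = 0.288), and Cpt1a, which carries fatty acids into mitochondria, at 85.7 ± 12.1 and 109 ± 33.7 CPM (0.34; adjusted p = 0.551).

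No gene of the lists for protein making and folding was called in edgeR. Of 79 ribosomal protein genes 65 were below 0, with a median of -0.07, and of 30 ribosome biogenesis genes 25, with a median of -0.10; Gnl3, a nucleolar GTPase, was at 31.2 ± 4.11 CPM in WT and 22.4 ± 1.12 in KO (log2 fold change -0.47; adjusted p = 0.147). The heat-shock chaperones had a median of -0.16, with 18 of 21 below 0. Dnajb1, a co-chaperone of Hsp70, was at 148 ± 36.9 and 105 ± 11 CPM (log2 fold change -0.50; adjusted p = 0.0974) and Hsph1 at 69.2 ± 18.2 and 49.6 ± 4.98 CPM (-0.49; adjusted p = 0.0999). Interferon-stimulated genes had a median of 0.09, with 26 of 36 above 0 and none called; Usp18, which damps interferon signalling, was at 12.9 ± 5.21 and 20 ± 3.94 CPM (0.65; adjusted p = 0.245).

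Lists of other T cell functions held no call or 1. None passed among 18 T helper lineage factors (median -0.05), 15 regulatory T cell genes (-0.10), 12 inhibitory receptors (0.00), 13 cytotoxic genes (0.07), 23 homing receptors (0.04), 15 MHC class I presentation genes (0.03), 36 cell cycle genes (0.08) or 13 tubulin genes and enzymes of tubulin acetylation (-0.07). Tnfrsf14, a ligand and receptor of the BTLA pathway, was at 38.8 ± 3.35 CPM in WT and 52.6 ± 1.95 in KO (log2 fold change 0.44; adjusted p = 0.118). Tuba1b, an alpha-tubulin, was at 170 ± 18.2 and 147 ± 18.2 CPM (-0.21; adjusted p = 0.609). In all, 29 of the 40 lists, with 730 tested genes, held no called member.

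Over the whole expressed range the size of difference that could be called shrank with the level. With the genes split in 5 equal bins by mean level, the median standard error of a log2 fold change was 0.51 in the lowest bin (up to 5.61 CPM), 0.26 in the second, 0.17 in the third, 0.13 in the fourth and 0.09 in the highest (above 81.2 CPM). The bins held 5, 7, 6, 8 and 12 calls, and the smallest called change went from 2.39 in the lowest bin to 0.35 in the highest. In the highest bin 99.6% of genes were within 0.5 of 0 on the log2 scale, and in the lowest 61.8%. Beyond the named genes, then, the abundant RNAs of these cells differed little between the groups. For genes of the lowest bin no change smaller than 2.39 on the log2 scale was called, and no limit of detection was computed. None of the 10 most abundant genes (Rn45s, Actb, Eef1a1, B2m, Tmsb10, Tpt1, Rmrp, Rpph1, Malat1 and Pabpc1) was called; Actb, beta-actin, was at 22600 ± 231 CPM in WT and 22536 ± 1278 in KO, with a 95% interval of its log2 fold change from -0.20 to 0.20.

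**Figure D4:**
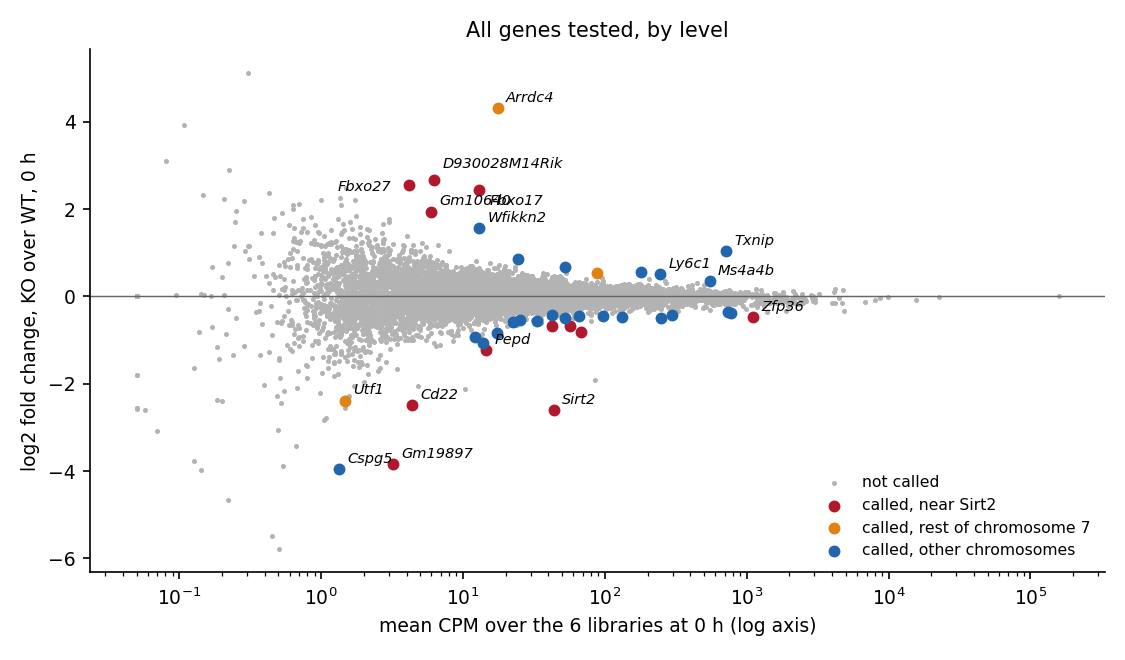
Log2 fold change of KO over WT at 0 h against mean CPM over the 6 libraries (log axis) for the 10981 genes tested; grey points were not called and coloured points were, by place. The cloud narrows to the right, so that Ms4a4b at 0.35 was called among abundant genes while calls below 5.61 CPM were at least 2.39 from 0.

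The libraries after 24 h of anti-CD3 show which of these differences were also there in stimulated cells. In that comparison 30 genes were called (0.273%), 20 higher (0.182%) and 10 lower (0.0911%) in KO, and 775 had an unadjusted p below 0.05 (7.06%). Of the calls 11 were near Sirt2. Of the 12 genes near Sirt2 called at 0 h, 7 were called again and all 12 kept their sign. Fbxo17 reached a log2 fold change of 3.76 (SE 0.24), Sirt2 -2.39 (SE 0.20), Pepd -1.14 (SE 0.23) and Erf -0.66 (SE 0.13), whereas Nfkbid was at -0.12 (SE 0.11). Of the 7 genes that rose on other chromosomes 3 were called again, Txnip at 1.02 (SE 0.09), Ly6c1 at 0.67 (SE 0.10) and Rhob at 0.76 (SE 0.17), and Arrdc4 was at 3.46 (SE 0.31).

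Of the 16 genes that fell on other chromosomes none was called at 24 h. Their median log2 fold change was -0.15 there against -0.50 at 0 h, but they were chosen by their values at 0 h, which favours a larger size at that time, and no test compares them with the other called genes. Of the 16, 13 kept their sign at 24 h. Klf9 was at -0.56 (SE 0.21), Arc at -0.41 (SE 0.21) and Irf4 at -0.30 (SE 0.08). Nearer to 0 after stimulation were Myc at -0.08 (SE 0.10), Nfkbia at 0.06 (SE 0.10), Tnfaip3 at 0.07 (SE 0.09) and Cish at 0.01 (SE 0.10). The difference between the times was tested as an interaction, which called 1 of 10981 genes (0.00911%), a histone gene outside the 38, with 575 at an unadjusted p below 0.05 (5.24%). This test uses the 0 h libraries by which the 16 genes were chosen; their smallest adjusted value was 0.506 (Nfkbia). For Nfkbid it was 0.305. A change with time is therefore not shown for any single one of these genes.

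**Figure D5:**
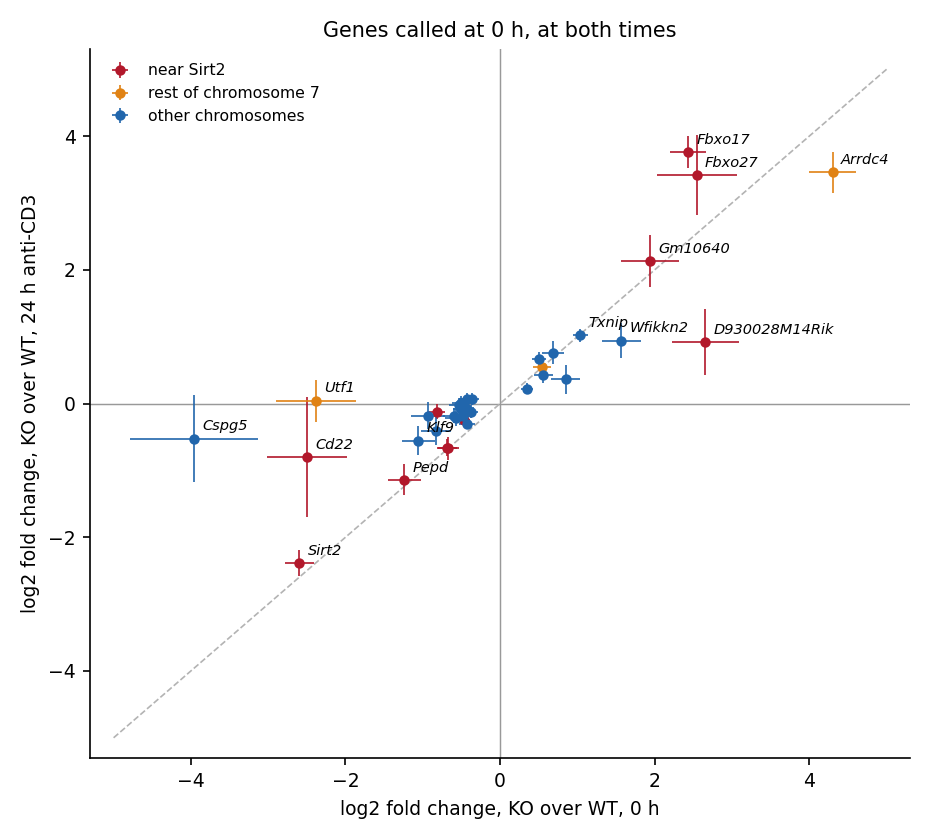
Log2 fold change of KO over WT at 0 h (horizontal) and after 24 h of anti-CD3 (vertical) for the genes called at 0 h, with standard errors, coloured by place; the dashed line marks equal values, and Gm19897 lies below the plotted range because all KO libraries at 24 h had 0 reads. Txnip, Pde2a, Sirt2, Pepd, Erf, Dedd2 and Gm10640 lie close to the dashed line, and Fbxo17 and Fbxo27 lie above it. D930028M14Rik, Cd22, Nfkbid and most genes that fell on other chromosomes lie nearer to the horizontal zero line. Of the latter, Irf4 and Klf9 lie nearer to the dashed line and Arc about midway.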

How the data were processed

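Each library has 1 table of raw read counts per gene symbol, deposited by the authors with no normalization. STAR 2.6.0c, DESeq and the build hg19 are named in the submitters' processing notes; since the tables list mouse symbols, the build behind them is uncertain and no gene coordinate is taken from it. The libraries were made from 100 ng of total RNA with depletion of ribosomal RNA, per the labels' protocols. The 5 closing rows that name no gene were left out: at 0 h the reads in no feature came to 24.4 to 31.6%, the ambiguous ones to 0.414 to 0.541% and those at several places to 28.7 to 30.9% of the gene reads plus these rows.

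The 12 libraries were fitted together as 4 groups with edgeR 4.0.16 (R 4.3.3): filterByExpr with a minimum count of 10 and total of 15, TMM scaling, robust quasi-likelihood test, Benjamini-Hochberg adjustment over 10981 genes, called below 0.05. CPM use TMM-scaled library sizes. The biological coefficient of variation, the spread between libraries beyond counting error, was 0.1145; depth sets the counting error. Of 23479 symbols 21692 matched RefSeq (GRCm38.p6) directly and 1624 by synonym, which gave gene order. Exon overlaps came from GENCODE. Exons of Zfp36, Cd22, Dedd2, Csrnp1, Cish, Rab11fip3, Plk3, Spry1 and Zfp703 also overlap an annotated gene on the opposite strand. Intervals are 95%. Alternatives used DESeq2 1.42.0, limma 3.58.1 (voom), other filters and scaling, a replicate block, and leaving out each library. The scripts were tested on simulated data. Same-numbered KO and WT libraries did not deviate together.

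Named are every called gene (with per-library values at a mean of 5 CPM or more in a group, the others by reads), called list members or up to 3 with the smallest p, the 10 most abundant genes and the 10 tested genes on each side of Sirt2. Cell markers outside T cells were compared as summed CPM with exact permutation tests. The members and lists were chosen with earlier results of these data known.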

Additional observations from a re-analysis of the deposited data

Results flagged for a closer look

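The linker histone gene Hist1h1e differed in its genotype effect between the times. KO over WT was 0.28 on the log2 scale at 0 h and -0.42 after 24 h of anti-CD3, a difference of -0.71 (edgeR's quasi-likelihood test of the interaction, adjusted p = 0.0442). With the replicate number as a block in the fit, 0 genes passed this test. It was not called at 0 h, where the level was 134 ± 14 CPM (WT) against 164 ± 8.07 CPM (KO; SD, n = 3 each; adjusted p = 0.288 in edgeR).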

How the results depend on the processing

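The 12 calls near Sirt2 were shared by every alternative that kept all libraries; their number was 13 with DESeq2 and with no filter on low counts. Leaving out each library in turn gave 8 to 11 near Sirt2, 17 to 33 in all, 8 to 14 higher, 9 to 25 lower, 1 to 3 on the rest of chromosome 7 and 5 to 21 on other chromosomes. With no filter 59 genes were called, 20 higher, 39 lower and 42 on other chromosomes. With the 6 libraries at 0 h alone 24 were called, 12 of them lower and 10 on other chromosomes; limma-voom gave 15 on other chromosomes, and 50 genes on each side of Sirt2 gave 6 near it. The cause of these shifts was not tested. DESeq2 called 50 in all, DESeq2's size factors in edgeR 39, the stricter filter 38 and library sizes without Rn45s 38.

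The replicate numbers are shared by KO and WT, but same-numbered libraries did not deviate together (r = -0.004, -0.001 and -0.0069 across genes), and not every library correlated best with its own number. With the replicate block 32 genes were called at 0 h, 28 of them shared with the fit without it, and the interaction called 0 genes instead of 1.

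Genes near 0 and not called changed sign under some alternatives. Paf1 was at -0.00376 with the replicate block and Ech1 at 0.0351 with limma-voom. Leaving out each library in turn gave log2 fold changes of -0.131 to 0.206 for Sirt1, -0.10 to 0.249 for Sirt6, -0.144 to 0.108 for Rn45s, -0.0510 to 0.0345 for Actb, -0.120 to 0.0644 for B2m, -0.206 to 0.102 for Tmsb10, -0.246 to 0.00276 for Rmrp, -0.103 to 0.107 for Paf1, -0.284 to 0.00668 for Pak4, -0.0951 to 0.156 for Ech1, -0.00460 to 0.184 for Actn4 and -0.152 to 0.254 for Rasgrp4. Dnajb1, Hsph1, Rps12 and Slc7a5, not called in the report's fit, passed in at least 1 alternative.

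With 3 libraries a group and 5777625 to 10025352 gene reads each, the genes called in the lowest of 5 level bins (up to 5.61 CPM) all had a log2 fold change of at least 2.39 in size.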

Other observations

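Among BCL2 family and death genes, a list in which only Dedd2 passed, 5 of 20 tested members had an unadjusted p below 0.05 at 0 h, against 8.0% of all genes tested. Beside Dedd2, 3 were lower in KO and 1, Bid, was higher (11.2 ± 1.60 and 15.3 ± 2.17 CPM; SD, n = 3 each; log2 fold change 0.46; adjusted p = 0.605 in edgeR). Pmaip1, which encodes the killer protein Noxa, had 4.20 ± 1.13 CPM as its WT level and 1.51 ± 0.486 CPM as its KO level (SD, n = 3 each; log2 fold change -1.51; adjusted p = 0.281 in edgeR). Bbc3, which encodes Puma, was at 14.6 ± 3.68 and 9.36 ± 2.40 CPM (-0.61; adjusted p = 0.382), and the survival gene Bcl2 at 182 ± 13.3 and 154 ± 20.7 CPM (-0.24; adjusted p = 0.382). From another list, the STAT factor Stat3 was at 220 ± 10.5 and 187 ± 4.84 CPM (-0.24; adjusted p = 0.35). None of these 4 passed the adjusted test, and neither did Bid; in the stimulated cells the adjusted p values of Pmaip1, Bbc3, Bcl2 and Stat3 were 0.846, 0.996, 0.913 and 0.968.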
